A study of Rattus norvegicus with 6 samples.

Results

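ISG15 is a small ubiquitin-like protein that interferon induces, and a dedicated set of enzymes attaches it to other proteins. The genes described here are Isg15 itself, the enzymes that conjugate or remove it (Uba7, Ube2l6, Herc6, Trim25 and Usp18), and interferon-induced members of the PARP family of ADP-ribosyltransferases with their ligase partner (Parp9, Dtx3l, Parp12 and Parp14). They were chosen by name, 10 genes in all, and 9 of them were measured by an array feature annotated with that gene alone, among 18166 such genes. The level of Parp12 was not analysed here. Spleens came from male Sprague-Dawley rats 10 days after surgery. In 3 rats partial portal vein ligation (PPVL), a stenosis tied around the portal vein over a needle, raised the portal pressure, and 3 sham rats had the same operation without a ligature. RNA of each whole spleen was hybridised to an Affymetrix Rat Gene 2.0 ST array of its own. Levels are log2 intensities after Robust Multiarray Average (RMA) normalization, in which a step of 1 is a doubling, and changes are PPVL minus sham from limma, an empirical Bayes test. As in the methods of the study, the threshold for a change was an unadjusted p under 0.05.

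Conjugation of ISG15 runs like that of ubiquitin. An E1 enzyme (UBA7) activates the modifier, an E2 enzyme (UBE2L6) carries it and E3 ligases place it on targets, HERC6 being the main ISG15 ligase known in mice. USP18 cuts ISG15 off again and also dampens signaling at the type I interferon receptor. PARP9 and DTX3L form a complex that joins ADP-ribose chemistry to ubiquitin ligation, and PARP12 and PARP14 attach single ADP-ribose units to proteins. All are known in human or mouse cells as products of interferon-stimulated genes, which STAT2 and IRF factors switch on through a DNA motif called the interferon-stimulated response element (ISRE).

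Of the 9 measured genes, 8 fell in PPVL spleens and 0 rose. Over all 18166 genes, 1.55% were lower and 2.69% higher at the same threshold. In these 8 genes every PPVL rat also lay below every sham rat, which held for 4.7% of all genes, and the opposite order, every PPVL rat above, for 6.64%. The median log2 fold change of the 9 genes was -0.47, while that of all genes was 0.00. No gene of the 9 passed a Benjamini-Hochberg adjusted p under 0.05 in limma over all genes, where 0 of 18166 passed, and each of the 9 had an adjusted p of 0.981. With 3 rats in each group the smallest two-sided p of an exact permutation test is 0.1. Groups that do not overlap always reach it, so for the 8 genes it adds nothing to their separation. In the remaining gene, Trim25, the groups overlapped. RNA of whole spleens was measured, so fewer cells that carry a transcript and less transcript per cell cannot be told apart.

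**Figure D1:**
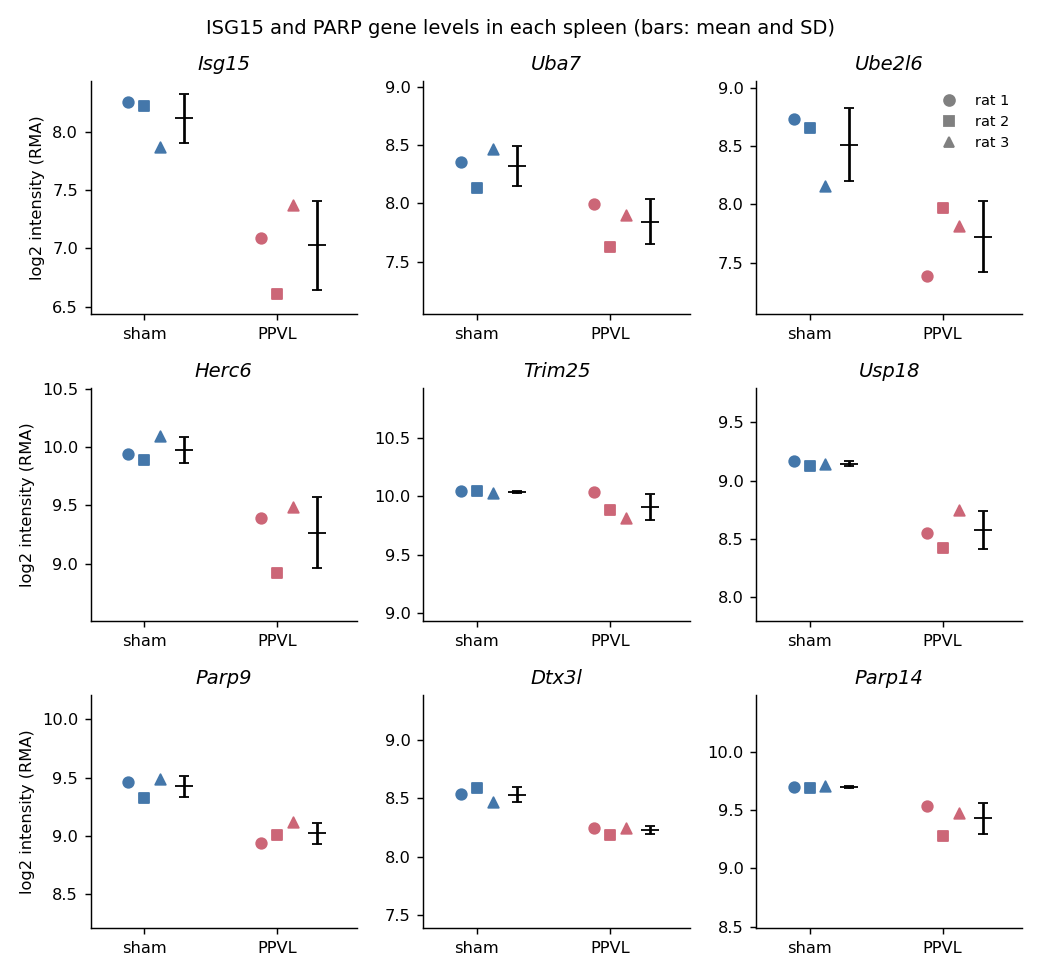
Log2 intensity (RMA) of each of the 9 measured genes in every spleen, with sham rats in blue, PPVL rats in red, a marker shape for the rat number and bars for the mean and SD of 3 rats. Each vertical axis spans the same log2 range, and the groups are apart in every panel but that of Trim25.

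Isg15, the modifier, had the largest change of the 9. Its log2 level was 8.26, 8.22 and 7.87 in sham rats 1, 2 and 3 and 7.09, 6.61 and 7.37 in PPVL rats 1, 2 and 3. The groups were apart by 0.50 between the lowest sham rat and the highest PPVL rat, and PPVL rat 2 was the lowest. The mean went from 8.12 ± 0.21 (SD, n = 3) to 7.03 ± 0.38 (SD, n = 3). This is a log2 fold change of -1.09 (standard error 0.21, 95% confidence interval -1.58 to -0.60), or a PPVL level of 47.0% of that in sham spleens. Among all genes 3 had a more negative log2 fold change.

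Uba7, the E1 enzyme, fell less. Its log2 level was 8.35, 8.14 and 8.47 in the sham rats and 8.0, 7.63 and 7.90 in the PPVL rats. The gap between the groups was 0.14, the narrowest of the 8 genes that fell, and PPVL rat 2 was again the lowest. Uba7 thus fell by 0.47 on the log2 scale (standard error 0.14), to 71.9% of the sham level.

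Ube2l6, the E2 enzyme, had a log2 level of 8.73, 8.65 and 8.15 in the sham rats and of 7.39, 7.97 and 7.81 in the PPVL rats. Here PPVL rat 1 was the lowest, and sham rat 3 was the lowest of the sham rats, as for Isg15. The log2 fold change was -0.79 (standard error 0.21), a PPVL level of 57.9% of sham. The standard deviation within groups was 0.31 in sham and 0.30 in PPVL spleens, so Ube2l6 varied widely in both.

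Both E3 ligases were measured and their values differ in size. Herc6 had a log2 level of 9.94, 9.89 and 10.10 in the sham rats and of 9.39, 8.92 and 9.48 in the PPVL rats. Its log2 fold change was -0.71 (standard error 0.16), a PPVL level of 61.2% of sham, and PPVL rat 2 was clearly the lowest. Trim25, which ligates ISG15 in human cells and is better known for activating the RNA sensor RIG-I, had 10.05, 10.04 and 10.03 in the sham rats and 10.03, 9.89 and 9.81 in the PPVL rats. PPVL rat 1 lay within the narrow sham range, while PPVL rats 2 and 3 lay below it. The log2 fold change of Trim25 was -0.13 (standard error 0.09, 95% confidence interval -0.34 to 0.09, unadjusted p = 0.199 in limma), which leaves room for a decrease as large as that of Dtx3l.

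Usp18, the protease that removes ISG15, was measured by a pair of transcript clusters. The brighter had a log2 level of 9.17, 9.13 and 9.14 in the sham rats and of 8.56, 8.43 and 8.75 in the PPVL rats. The sham rats hardly differed (SD 0.02), and all PPVL rats lay at least 0.38 below them. Its log2 fold change was -0.57 (standard error 0.10), a PPVL level of 67.4% of sham. The other cluster had 9.13, 8.67 and 8.92 in the sham rats and 8.26, 7.74 and 8.35 in the PPVL rats, with a log2 fold change of -0.79 (standard error 0.19). Both clusters were lowest in PPVL rat 2 and agreed in direction.

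The PARP genes and Dtx3l fell by less than Isg15 did. Parp9 had a log2 level of 9.46, 9.33 and 9.49 in the sham rats and of 8.94, 9.01 and 9.12 in the PPVL rats, with a log2 fold change of -0.40 (standard error 0.09), a PPVL level of 75.6% of sham. Dtx3l, whose protein binds PARP9, had 8.54, 8.59 and 8.47 in the sham rats and 8.25, 8.19 and 8.25 in the PPVL rats. The PPVL rats agreed closely for Dtx3l (SD 0.03), and its log2 fold change was -0.30 (standard error 0.08), a PPVL level of 81.1% of sham. Parp14 had 9.70, 9.69 and 9.70 in the sham rats and 9.53, 9.28 and 9.48 in the PPVL rats. Its log2 fold change was -0.27 (standard error 0.10), a PPVL level of 83.0% of sham. The change of Parp14 was the least secure of the 8, as it did not pass without PPVL rat 2 (-0.19), sham rat 1 (-0.27), sham rat 2 (-0.27) or sham rat 3 (-0.27).

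**Figure D2:**
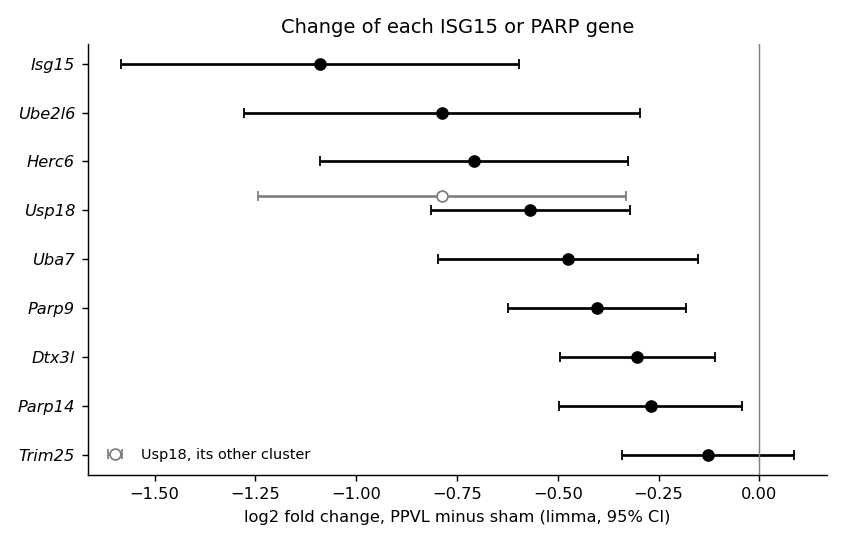
Log2 fold change (PPVL minus sham) of each measured gene from limma, with 95% confidence intervals over 3 rats against 3; the open point is the other transcript cluster of Usp18. Isg15 is at -1.09, and the interval of Trim25 alone includes 0.

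In the RefSeq annotation of the rat genome (GRCr8) Parp9, Dtx3l and Parp14 lie side by side on chromosome 11, in this order, with a caspase pseudogene between Dtx3l and Parp14. Parp9 and Dtx3l are read in opposite directions from neighbouring starts. The promoters of the genes were searched on both strands, in a window from 250 bases before to 50 bases after the RefSeq start. The motifs were the ISRE core (GAAA, any pair of bases, GAAA) and the shorter site of IRF factors (AANNGAAA, N being any base). The shorter site is contained in the core. RefSeq windows were matched for 8 of the 10 genes, all but Isg15 and Usp18. The core was present in 3 of these 8, namely Dtx3l, Parp14 and Parp12, and in 3.77% of all 27457 promoters of this length. The shorter site was present in 6 of the 8 and in 25.9% of all promoters, so its presence alone is common. Neither was found in these windows of Ube2l6 and Herc6, which fell by more than Dtx3l and Parp14. Among the genes that fell and had a window, Dtx3l and Parp14, which hold the core, thus fell least. Whether Isg15 and Usp18 hold the core was not searched, and Parp12 has no level here. A match describes these letters and is no evidence of binding.

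The stretches that hold the core in the measured genes are printed 5′ to 3′ on the strand of the gene, from 250 bases before to 30 after the start, with the core in capitals. They are Dtx3l at chr11:78319975-78320254 and Parp14 at chr11:78407884-78408163, both on the plus strand. Positions count from 1 at the first transcribed base and from -1 before it. In Dtx3l the core lies at 11 to 20, and in Parp14 at -76 to -67.
Dtx3l: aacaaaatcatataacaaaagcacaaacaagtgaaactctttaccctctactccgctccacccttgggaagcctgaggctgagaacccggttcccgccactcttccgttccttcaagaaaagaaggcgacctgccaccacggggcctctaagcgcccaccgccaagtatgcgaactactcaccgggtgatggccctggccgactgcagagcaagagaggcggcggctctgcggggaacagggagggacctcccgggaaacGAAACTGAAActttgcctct
Parp14: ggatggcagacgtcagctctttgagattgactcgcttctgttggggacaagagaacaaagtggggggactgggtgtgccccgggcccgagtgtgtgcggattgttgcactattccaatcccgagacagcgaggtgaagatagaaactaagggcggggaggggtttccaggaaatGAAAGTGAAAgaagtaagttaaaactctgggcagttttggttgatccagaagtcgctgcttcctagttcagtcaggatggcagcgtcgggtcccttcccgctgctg
Trim25 is shown for contrast, since its groups overlapped and its window holds the shorter site, in capitals, at -29 to -22 (chr10:74309774-74310053, plus strand). In Uba7, which fell, the shorter site lies at 38 to 45, shown within the 30 bases at chr8:117543922-117543951 (plus strand). In both the site is read on the opposite strand, so the capitals show its complement.
Trim25: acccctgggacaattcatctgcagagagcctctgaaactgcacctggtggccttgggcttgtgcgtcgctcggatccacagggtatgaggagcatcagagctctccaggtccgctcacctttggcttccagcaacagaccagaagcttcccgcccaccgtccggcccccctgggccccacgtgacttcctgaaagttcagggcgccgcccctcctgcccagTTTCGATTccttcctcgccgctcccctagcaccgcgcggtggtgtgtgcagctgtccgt
Uba7: gaaccaactctgtctagTTTCACTTttggt
Both a gene that fell and the gene that did not pass thus carry the shorter site.

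**Figure D3:**
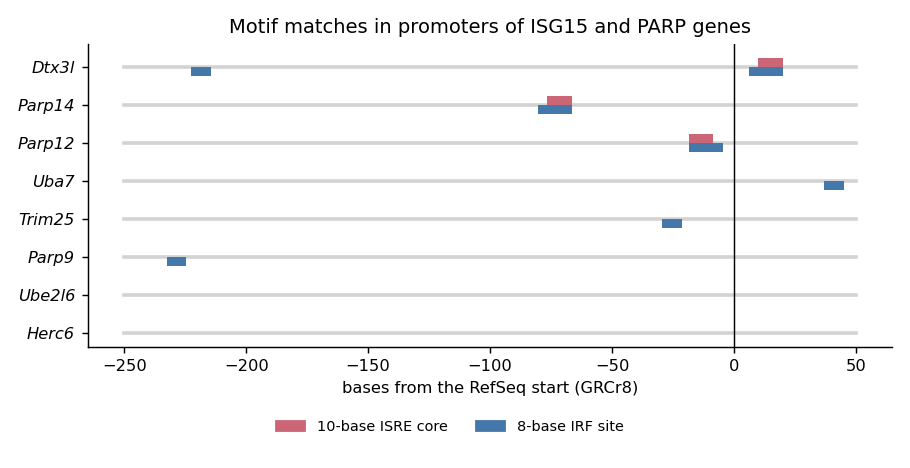
Positions of the 10-base ISRE core (red) and the 8-base IRF site (blue) in the promoter windows of 8 genes, in bases from the RefSeq start (GRCr8), with grey lines for the span searched. The core appears in Dtx3l, Parp14 and Parp12 only, and Ube2l6 and Herc6 show no match.

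Rats of a group did not lie equally low. PPVL rat 2 had the lowest value of all 6 rats in 6 of the 9 genes (Isg15, Uba7, Herc6, Usp18, Dtx3l and Parp14), PPVL rat 1 in Ube2l6 and Parp9, and PPVL rat 3 in Trim25. Averaged over the 9 genes, PPVL rats 1, 2 and 3 lay -0.51, -0.65 and -0.42 from the sham mean on the log2 scale. Single deviations reached -1.50 for Isg15 and -1.06 for Herc6 in PPVL rat 2, and -1.13 for Ube2l6 in PPVL rat 1. The sham rats averaged 0.05, -0.01 and -0.04 from their own mean. The median of each whole array lay between 6.22 and 6.33. RMA normalization draws the arrays to a like scale, so these medians say nothing about the deviations of single genes.

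**Figure D4:**
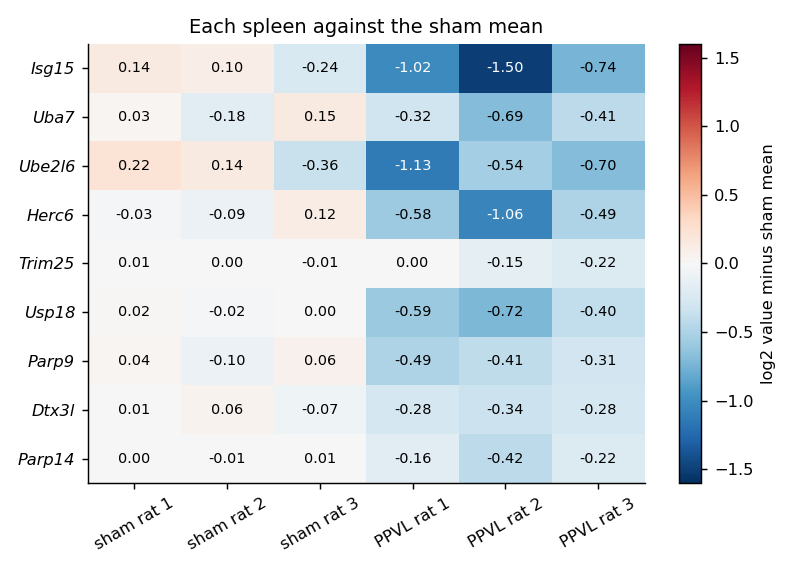
Log2 value of each gene in each spleen minus the mean of the 3 sham spleens, with the value printed in each cell and blue for values below the sham mean. PPVL rat 2 carries the deepest value, -1.50 for Isg15, while the row of Trim25 stays between -0.22 and 0.01.

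The change of Isg15 was set beside those of the other genes rat by rat, from the difference of log2 values between Isg15 and each of 8 genes. The log2 fold change of Isg15 was more negative by 0.96 than that of Trim25 (standard error 0.27) and by 0.82 than that of Parp14 (standard error 0.21). It was more negative by 0.79 than that of Dtx3l, by 0.69 than that of Parp9 and by 0.52 than that of Usp18. For these 5 genes the difference was lower in 3 of 3 PPVL rats than in every sham rat. This gives the smallest exact permutation p of 0.1, and 0.16 after Benjamini-Hochberg adjustment over the 8 comparisons. For Usp18 this holds for its brighter cluster, the only one compared. The other cluster of Usp18 had a log2 fold change of -0.79, nearer to that of Isg15. The difference of Isg15 from Uba7 (0.61, standard error 0.25), Herc6 (0.38, standard error 0.19) and Ube2l6 (0.30, standard error 0.34) overlapped between the groups, with exact permutation p of 0.2, 0.2 and 0.6. With 3 rats against 3 none of these could pass.

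The genes most like Isg15 over the 6 arrays were found by the root mean square difference of log2 values, after each gene was centred on its own mean. Outside the 10 genes the nearest 5 of 18165 were Dhx58 (0.191), Mx2 (0.233), Oas1b (0.24), Mx1 (0.242) and Slfn4 (0.275). Dhx58 encodes LGP2, a cytosolic RNA sensor, Mx1 and Mx2 are antiviral dynamin-like GTPases, Oas1b belongs to the oligoadenylate synthetases and Slfn4 to the schlafens. The distance of Isg15 from a flat profile was 0.60. Herc6 ranked 5th (0.27), Usp18 11th, Ube2l6 23rd, Uba7 33rd, Parp9 55th, Dtx3l 92nd and Parp14 113th, while Trim25 ranked 2037th at 0.55. The measure favours genes with a change as large as that of Isg15, so small changes rank low even when their rats lie in the same order.

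The transcription factors of the ISRE were not uniform. Of 7 measured, 2 fell and 0 rose. Irf7, which amplifies the interferon response, fell by 0.81 on the log2 scale (standard error 0.19), from 10.64 ± 0.39 (SD, n = 3) in sham to 9.83 ± 0.11 (SD, n = 3) in PPVL spleens. Irf9, the DNA-binding part of its complex with STAT2, fell by 0.34 (standard error 0.08), with both groups tight (SD 0.01 in sham and 0.03 in PPVL). Stat2, at 9.90 in sham and 9.80 in PPVL spleens, differed by -0.10 (standard error 0.10) on the log2 scale, and its groups overlapped. Of 9 measured interferon genes, 1 fell. It was Ifng, the type II interferon, at -0.39 (standard error 0.12). Its call was lost when PPVL rat 2, PPVL rat 3 or sham rat 2 was left out (-0.51 to -0.31 over all alternatives). The median of the interferon genes was 0.03. Of 14 listed interferon genes only these 9 were measured, and their levels were low on average. They averaged 5.20 to 5.37 in PPVL and 5.27 to 5.32 in sham rats, below the array medians of 6.22 to 6.33. Ifna2 (6.94 in sham and 6.97 in PPVL spleens) and Ifnl3 (7.05 in both) lay above these medians, and their groups overlapped. For interferon genes below the medians, flat values cannot show whether the transcripts changed.

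Proteins known from human or mouse work to receive ISG15 were represented by 9 genes, of which 3 fell and 0 rose. They were Mx1 (-0.79, standard error 0.15), Ifih1, the RNA sensor MDA5 (-0.48, standard error 0.11), and Rig1, the rat gene of the sensor RIG-I (-0.35, standard error 0.10). All 3 are themselves interferon-stimulated. The median log2 fold change of the 9 substrates was -0.08. Of 10 further genes whose products act with ISG15, its ligases or USP18, 0 passed, among them Arih1, a ubiquitin ligase of the RING-between-RING type (-0.11, standard error 0.08), and Skp2, which targets USP18 for degradation in human cells (-0.24, standard error 0.15). With PPVL rat 2 left out Skp2 passed at -0.37, and with sham rat 3 left out at -0.36.

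Among 5 genes of the RIG-I pathway that act with TRIM25, 3 fell, namely Dhx58 (-0.90, standard error 0.12), Rig1 and Zc3hav1, which encodes the zinc-finger antiviral protein ZAP (-0.23, standard error 0.10). Zc3hav1 did not pass without sham rat 1 or 2 or without any PPVL rat, at -0.28 to -0.16 over all alternatives. Of 10 other TRIM genes 2 fell. Trim69 had -0.35 (standard error 0.13) and Trim21, a cytosolic antibody receptor, -0.29 (standard error 0.11). The call of Trim69 was lost when either PPVL rat 1 or 2 or sham rat 2 or 3 was left out (-0.44 to -0.24 over all alternatives), and that of Trim21 also without PPVL rat 3 (-0.40 to -0.22). Of 4 other measured HERC genes 0 passed, and Herc4, the nearest, had -0.23 (standard error 0.10, unadjusted p = 0.0541 in limma). Herc5 was not measured. Herc4 passed without PPVL rat 3 or sham rat 2 (-0.28 and -0.27), and Herc1 without PPVL rat 2 (-0.26).

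The other measured genes of the PARP family moved little. Of 14 listed 10 were measured, Parp10 being among those that were not. Of these 10 genes 1 fell, Zc3hav1, which is PARP13, and the median log2 fold change was -0.01. Of 7 genes that bind or remove ADP-ribose 0 passed, Parg, the glycohydrolase that cleaves its polymers, being at -0.12 (standard error 0.08). None of 3 other Deltex ligases passed, and their log2 fold changes lay between 0.02 and 0.06. Of 10 enzymes that make or use NAD+, the substrate of PARPs, 1 rose, Sarm1, an NAD+ hydrolase known from neurons, at 0.34 (standard error 0.08). Its level was low, 4.93 in sham and 5.27 in PPVL spleens. Nampt, which makes the NAD+ precursor nicotinamide mononucleotide, had -0.24 (standard error 0.12) and did not pass.

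Other ubiquitin-like systems served as a comparison. Of 37 measured genes for SUMO, NEDD8 and UFM1 conjugation and for ubiquitin and FAT10 with their E1 and E2 enzymes, 0 passed the unadjusted threshold in limma. Their log2 fold changes lay between -0.19 and 0.15 with a median of -0.03. Cops5, the subunit that removes NEDD8, had -0.18 (standard error 0.09) and Uba6, an E1 enzyme of ubiquitin and FAT10, -0.19 (standard error 0.12). Without PPVL rat 3 Uba6 passed, at -0.28. Over all 15 lists of related genes, 10 of 116 fell (8.62%, against 1.55% of all genes) and 1 rose, and their median was 0.00. The lists were compared with Isg15 and its enzymes by counts and medians, without a test of the difference.

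**Figure D5:**
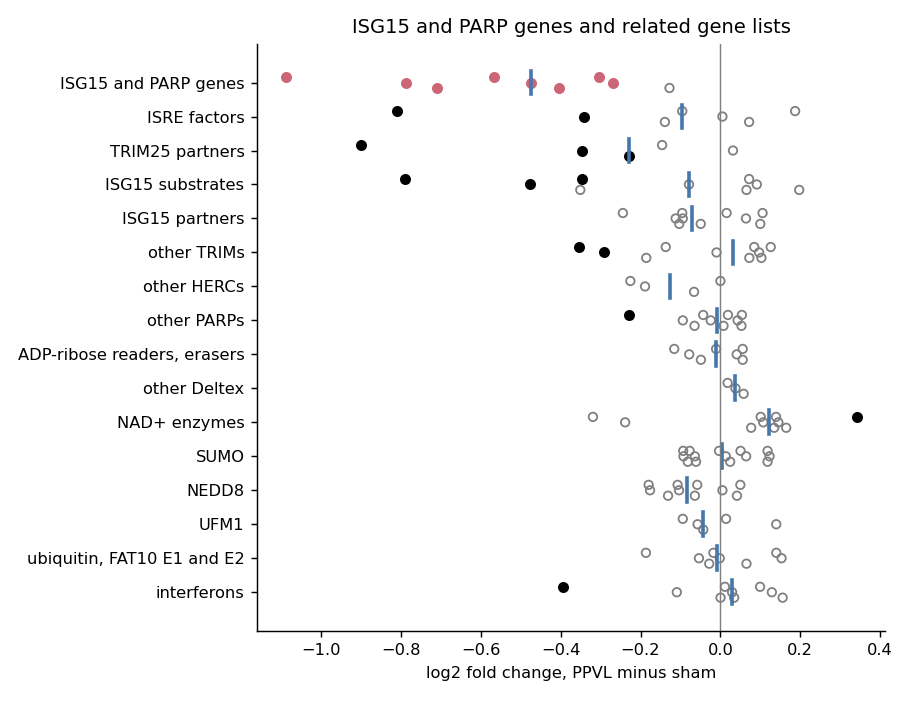
Log2 fold change (PPVL minus sham) of every gene in the 9 measured ISG15 and PARP genes (top) and in 15 related lists; filled points passed an unadjusted p under 0.05 in limma and blue bars mark medians. The median of the top group is -0.47, while the SUMO, NEDD8, UFM1 and ubiquitin genes stay between -0.19 and 0.15.

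Markers of other cell types were read on the same arrays. B cell markers averaged 10.72 to 10.97 and red pulp macrophage markers 10.72 to 10.92 over the 6 rats. For both lists the groups overlapped, and 0 of 6 and 0 of 8 genes passed in limma. Natural killer cell markers were lower in PPVL spleens, with 4 of 8 measured genes past the threshold, and their mean log2 level was 7.89 to 8.06 in PPVL and 8.16 to 8.46 in sham rats. Those past it were Gzma, Gzmb and Prf1, which encode cytotoxic granule proteins, and the receptor gene Klrk1. Gzmb was dim, at 5.36 in sham and 4.91 in PPVL spleens. Eomes (-0.23) did not pass. Klrd1 (-0.29), Nkg7 (-0.21) and Ncr1 (-0.07, standard error 0.17) did not pass either, and their groups overlapped. Markers of neutrophils and their precursors were higher in 3 of 10 genes, at mean levels of 6.78 to 7.85 in PPVL and 6.3 to 6.79 in sham rats, and PPVL rat 2 was the highest. Of 9 spleen stroma markers 2 were higher, with mean levels of 8.61 to 8.85 in PPVL and 8.52 to 8.58 in sham rats. The part of these in the change of Isg15 and its enzymes was not tested. Markers of plasmacytoid dendritic cells, known as strong makers of type I interferon, averaged 8.78 to 9.04 in PPVL and 8.71 to 8.95 in sham rats. Of these, 0 of 8 passed the threshold, and the listed markers Siglech and Tlr9 were not measured. Of 9 T cell markers 0 passed, at mean levels of 9.47 to 9.70 in PPVL and 9.49 to 9.58 in sham rats. Of 5 erythroid markers 0 passed either, but all had negative log2 fold changes with a median of -0.61, and Rhag, of the Rh complex of red cells, was at -0.86 (standard error 0.58). The erythroid mean level was 7.98, 9.75 and 8.92 in PPVL rats 1, 2 and 3 and 9.78, 9.88 and 8.74 in the sham rats, so the groups overlapped and PPVL rat 1 was the lowest. Exocrine pancreas markers averaged 9.54 in PPVL rat 1 and 5.44 to 5.56 in the other 5 rats, 17 of the 19 genes being highest in PPVL rat 1. Of these genes 1 passed the threshold, the trypsin gene Try10, at 7.46, 7.61 and 7.58 in the PPVL rats and 6.86, 7.01 and 7.27 in the sham rats, with a log2 fold change of 0.51 (standard error 0.12). Without PPVL rat 1 the same count, 8 of the 9 genes, fell. Isg15 then had a log2 fold change of -1.12 (-1.09 with all rats). Ube2l6, which was lowest in PPVL rat 1, had -0.62 (-0.79 with all rats). The part of the pancreas signal in these changes was not tested.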

How the data were processed

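Spleen RNA of 3 PPVL and 3 sham rats was measured on Affymetrix Rat Gene 2.0 ST arrays, 1 array per rat. The authors normalized the arrays with RMA in Transcriptome Analysis Console, named also in the submitters' processing notes, and deposited log2 intensities of 36685 transcript clusters, with no filter stated. Background correction and normalization are therefore theirs, and there is no measure of depth or of detection. Precision is limited by having 3 arrays in each group. The labels name each sample as a rat of its own.

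Clusters with 1 gene symbol (18511) were named from the annotation of the array, and symbols were brought up to date by Entrez number from RefSeq (GRCr8), where 18394 matched. Of several clusters of a gene (291 genes) that with the highest mean over 6 arrays was used. The groups were tested in R 4.3.3 by limma 3.58.1, with lmFit and eBayes run on every cluster and no covariate, and with Benjamini-Hochberg adjustment over the 18166 genes. The fit was tested on simulated data. Named genes are the 10 genes, the 5 nearest to Isg15, Stat2, Irf7, Irf9 and up to 4 genes per list with the smallest p. The genes, lists and tests were chosen with earlier results of these data known, and the study names several of these genes as changed on these arrays, so their counts are not independent evidence. Sequences are those of RefSeq (GRCr8). As alternatives, each rat was left out in turn, the replicate number was added as a block, and further fits used filters on dim and on unnamed clusters, a variance trend, a robust prior, array weights, quantile normalization, median centring and the mean of a gene's clusters.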

Additional observations from a re-analysis of the deposited data

How the results depend on the processing

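In all 15 alternatives the 9 measured ISG15 and PARP genes had negative log2 fold changes, and the number that fell was 8 in 11 of them and 7 without PPVL rat 2, sham rat 1, sham rat 2 or sham rat 3, where Parp14 did not pass. The median log2 fold change of the 9 genes was -0.57 to -0.40 with a rat left out. Isg15 lay between -1.26 and -0.88 over all alternatives and passed in each. With the replicate number as a block, 8 genes fell and the median was -0.47. Rats of the same number did not deviate together over all genes in every pair (correlations of -0.17, 0.23 and 0.17), so the numbers were not taken to pair them. In the lists of related genes, 7 to 10 genes fell and 1 to 2 rose with a rat left out, and 0 rose when a filter dropped the dimmest clusters, Sarm1 among them. With the block 8 of them fell, and Zc3hav1 and Trim21 did not pass. Zc3hav1 did not pass with median centring either. Calls were gained by Herc4 in 6 alternatives, by Skp2 in 2 and by Herc1 and Uba6 in 1 each. Over all genes 168 to 503 were lower and 295 to 539 higher with a rat left out, the fewest without PPVL rat 1 (168 and 295) and the most lower genes without PPVL rat 2, against 281 and 488 with all rats. The causes were not tested. No measure of detection limits these values, and changes of dim genes such as Sarm1, Ifng and Trim69 are less certain in size.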
